A study of Arabidopsis thaliana with 12 samples.

Results

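HEMA3 (AT2G31250), CHLM (AT4G25080) and AT1G74470 encode enzymes of chlorophyll and tetrapyrrole synthesis in Arabidopsis thaliana, and their transcripts were compared between plants given 30 min of light and plants kept dark. A member was a gene of these 3 loci measured by a probe whose platform annotation names that gene and no other. One probe met this rule for each gene, so the members are 3 of the 691 genes that have a probe of their own, on an array of 3439 probes. The light group held 6 samples of plants that had 12 h of darkness followed by 30 min of light. The dark group held 6 samples of plants kept in darkness for 12 h and given 0 min of light. All plants in both groups were wild type of the Landsberg ecotype, per the labels, which give no age, organ or light quality. No group stayed dark for the extra 30 min, so the effects of light and of the added time cannot be told apart.

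Tetrapyrroles include chlorophyll, haem, sirohaem and the phytochrome chromophore. The plant pathway starts in the chloroplast from glutamate bound to its transfer RNA. Glutamyl-tRNA reductase, encoded by the HEMA genes, catalyses the committed reduction. At protoporphyrin IX the route divides, with iron leading to haem and magnesium to chlorophyll. CHLM, the magnesium protoporphyrin IX methyltransferase, acts just after magnesium is inserted. AT1G74470 encodes geranylgeranyl reductase, which makes the phytyl tail of chlorophyll and of tocopherols and therefore acts at the end of the pathway. Light is required for a late step of chlorophyll synthesis in flowering plants, the reduction of protochlorophyllide, and it is known to raise transcripts of several genes of the pathway. HEMA1 is the copy known for its light response in green tissue. It had no probe of its own here, and HEMA3 belongs to the same family. Whether the HEMA3 probe also binds transcripts of other HEMA genes was not tested.

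The deposited intensities are linear and their unit is unknown. Array medians ranged from 0.666 to 0.687 in light samples and from 0.443 to 0.491 in dark samples, a shift of 0.54 on the log2 scale between group means. Values were therefore quantile-normalized, which gives every array the same distribution, before log2 was taken. The size of each difference below depends on that step, so the values as deposited are given beside it. Replicate numbers 1 to 6 occur in both groups. Consecutive numbers (1 and 2, 3 and 4, 5 and 6) resembled each other, and the labels do not state that the samples are from different plants. The p-values cover only the spread between these samples, part of which may be technical.

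After normalization HEMA3 and AT1G74470 rose in light by 1.24-fold each, and CHLM fell to 0.715-fold of its dark level. These were the calls of limma over all probes at an adjusted p under 0.05, with 6 samples per group. Both rises lay among the 23.6% of all probes called higher in light, and the fall among the 29.0% called lower. With 52.5% of the array called in either direction, 3 calls among 3 genes do not set the pathway apart. In bulk RNA such as this, fewer cells of a type and less RNA per cell cannot be told apart. None of the 3 calls was kept when each pair of consecutive numbers was averaged, a comparison of 3 against 3 in which 34.9% of probes were still called. A block by replicate number kept all 3 calls, with 60.2% of probes called. A random block for consecutive numbers kept none, with 40.0% of probes called, nor did a block of the averaged pairs, with 46.0%.

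**Figure D1:**
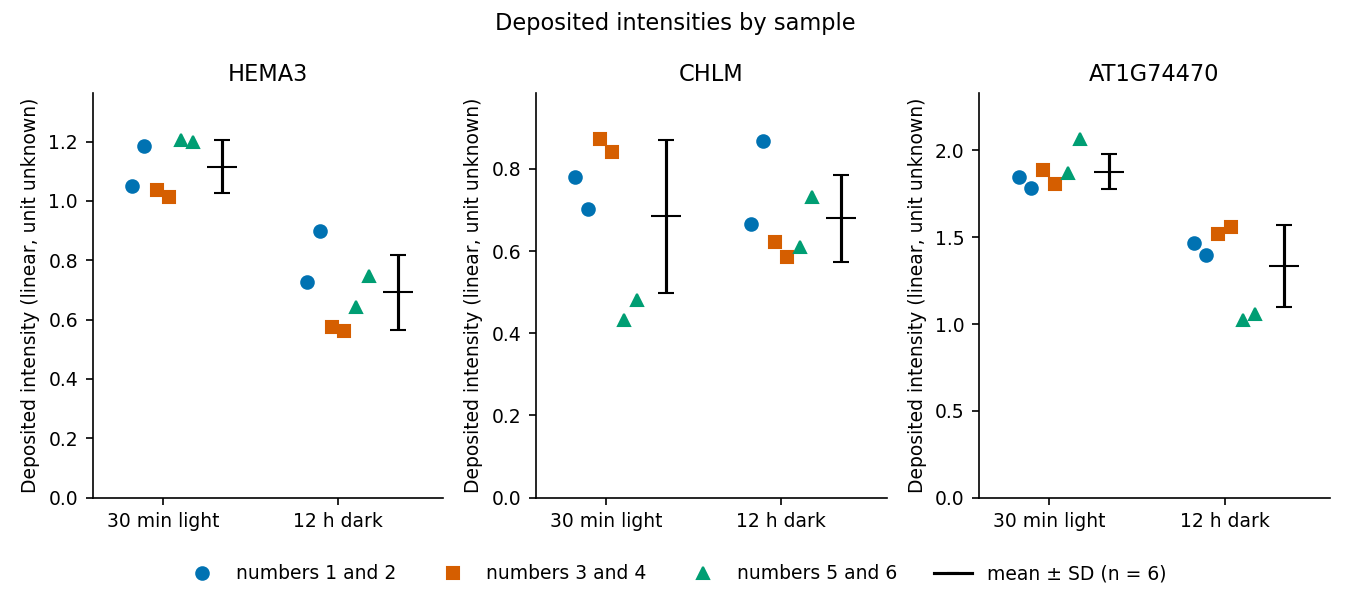
Deposited intensity (vertical axis, linear, unit unknown) of HEMA3, CHLM and AT1G74470 in each of the 6 light and 6 dark samples, with symbols for the pairs of consecutive replicate numbers and bars for the mean ± SD. All light samples lie above all dark samples for HEMA3 and AT1G74470, as for 29.1% of all probes. The CHLM groups overlap, and numbers 5 and 6 stand low for CHLM in light and for AT1G74470 in the dark.

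HEMA3 is the only member at the committed step, and its probe does not represent that step as a whole, since HEMA1 had no probe of its own. Its deposited intensity was 1.05, 1.19, 1.04, 1.01, 1.21 and 1.20 in light samples 1 to 6, against 0.726, 0.899, 0.575, 0.563, 0.643 and 0.746 in dark samples 1 to 6. The lowest light sample lay above the highest dark sample, as was so for 29.1% of all probes on the values as deposited. The means were 1.12 ± 0.0900 in light and 0.692 ± 0.126 in the dark (SD, n = 6 each), a ratio of 1.61. After normalization the log2 values were -0.02 ± 0.13 in light and -0.33 ± 0.25 in the dark (SD, n = 6 each), and the groups overlapped. Light sample 4, the lowest at -0.18, lay below dark sample 2, the highest dark sample, at 0.03. The log2 difference of normalized values was 0.31 ± 0.12 (SE), with a 95% confidence interval of 0.05 to 0.56 (limma adjusted p = 0.0444).

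Both normalized and as deposited, HEMA3 was higher in light in all 6 pairs of equal numbers, but unevenly. How many of all probes were higher in all 6 was not computed. On normalized values, light minus dark was 0.09 and 0.03 on the log2 scale for numbers 1 and 2, against 0.45 and 0.45 for numbers 3 and 4 and 0.50 and 0.31 for numbers 5 and 6. Dark samples 1 and 2 were high for this gene, at a pair mean of -0.09, against -0.61 for dark samples 3 and 4 and -0.30 for dark samples 5 and 6. Averaging the pairs left the difference as it was and gave a limma adjusted p of 0.214. Over the 21 alternative settings run for this gene the adjusted p ranged from 0.000238, on the values as deposited, where 49.9% of all probes were called higher, to 0.336, with arrays centred on their medians. Leaving out number 1, 3, 4, 5 or 6 in both groups also ended the call, at differences of 0.27 to 0.35. Leaving out number 2 kept it, at 0.36.

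CHLM stands for the magnesium branch. Its deposited intensity was 0.781, 0.703, 0.872, 0.840, 0.432 and 0.482 in light samples 1 to 6, against 0.665, 0.868, 0.621, 0.584, 0.610 and 0.730 in dark samples 1 to 6. Light samples 5 and 6 were the lowest of all 12, light sample 3 was the highest, and the groups overlapped. The means hardly differed as deposited, at 0.685 ± 0.186 in light and 0.680 ± 0.106 in the dark (SD, n = 6 each), a ratio of 1.01. After normalization the log2 values were -0.83 ± 0.44 in light and -0.35 ± 0.21 in the dark (SD, n = 6 each), still with overlap. The log2 difference of normalized values was -0.48 ± 0.19 (SE), with a 95% confidence interval of -0.89 to -0.08 (limma adjusted p = 0.0448). The fall of CHLM is thus one relative to the rest of the array: as deposited the difference was -0.027 (limma adjusted p = 0.905), while the array median was 0.54 higher in light.

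The direction for CHLM turned between pairs of samples. On normalized values, light minus dark was -0.29 and -0.74 on the log2 scale for numbers 1 and 2, 0.07 and 0.10 for numbers 3 and 4, and -0.99 and -1.04 for numbers 5 and 6. So 4 of 6 equal-numbered pairs were lower in light, and numbers 5 and 6 carried the deepest falls. As deposited 3 of 6 pairs were lower, with a range of -0.60 to 0.52. The means of the 3 light pairs spread over 0.92 on the log2 scale, and the widest gap inside a light pair was 0.18. Without numbers 5 and 6 in both groups the difference was -0.21 (limma adjusted p = 0.251, where 44.7% of all probes were called), and without numbers 3 and 4 it was -0.78 (limma adjusted p = 0.0152). With the pairs averaged the adjusted p was 0.202, and over all 21 alternatives it ranged from 0.0152 to 0.905. Leaving out number 1, 2, 5 or 6 alone also ended the call, at differences of -0.52 to -0.37.

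AT1G74470 stands for the phytyl tail at the end of the pathway. Its deposited intensity was 1.85, 1.79, 1.89, 1.81, 1.87 and 2.06 in light samples 1 to 6, against 1.46, 1.40, 1.52, 1.56, 1.02 and 1.06 in dark samples 1 to 6. The light samples lay close together, dark samples 5 and 6 stood below the other dark samples, and the groups did not overlap. The means were 1.88 ± 0.0998 in light and 1.34 ± 0.237 in the dark (SD, n = 6 each), a ratio of 1.40. After normalization the log2 values were 0.83 ± 0.09 in light and 0.52 ± 0.24 in the dark (SD, n = 6 each). These groups did not overlap either, though light sample 2, the lowest, was at 0.75 and dark sample 4, the highest, at 0.74. Among all probes 29.1% were higher in light without overlap as deposited, and 18.9% after normalization. The log2 difference of normalized values was 0.31 ± 0.11 (SE), with a 95% confidence interval of 0.08 to 0.55 (limma adjusted p = 0.0262).

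Most of the rise of AT1G74470 came from numbers 5 and 6. On normalized values, light minus dark was 0.64 and 0.76 on the log2 scale for numbers 5 and 6, against 0.16, 0.14, 0.17 and 0.02 for numbers 1 to 4. Without numbers 5 and 6 in both groups the difference was 0.12 (limma adjusted p = 0.216), and leaving out number 5 or 6 alone also ended the call, at 0.25 and 0.23. With arrays centred on their medians the difference was -0.030 (limma adjusted p = 0.850), so the direction of this gene relative to the array depended on the scaling. As deposited it was 0.51 (limma adjusted p = 0.00238). With the pairs averaged the adjusted p was 0.185, and the lowest and highest adjusted p over the 21 alternatives were the 2 given for the deposited and the centred arrays.

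**Figure D2:**
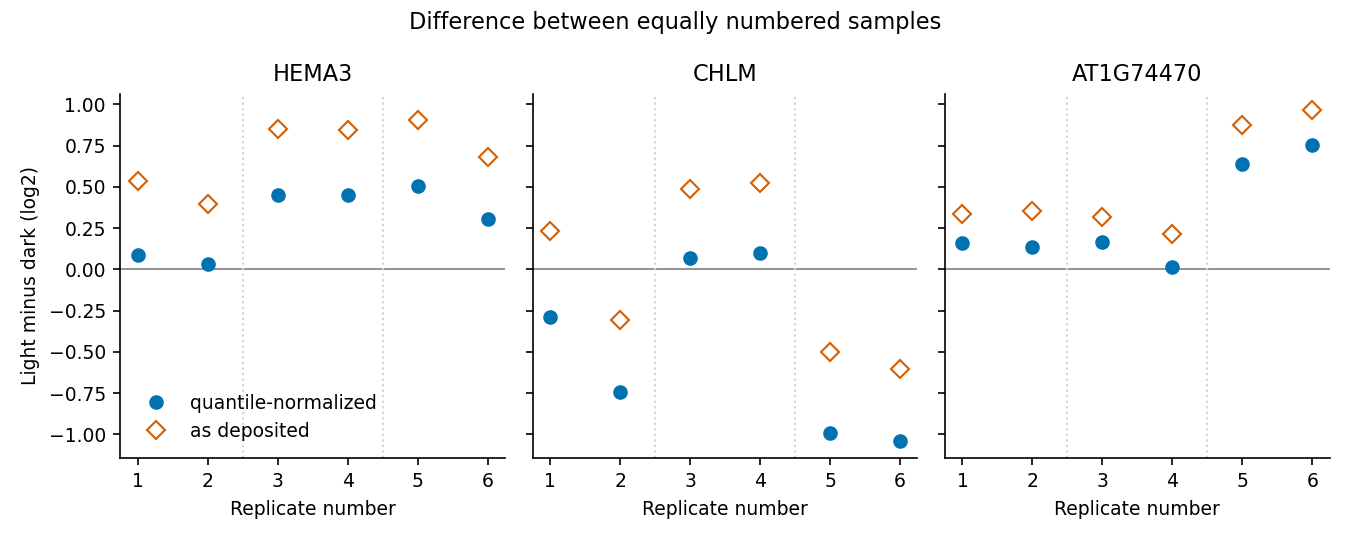
Light minus dark on the log2 scale (vertical axis) for each of the 6 replicate numbers (horizontal axis), filled for quantile-normalized values and open for values as deposited, with dotted lines between pairs of consecutive numbers. HEMA3 and AT1G74470 are above 0 at all 6 numbers for both kinds of value. CHLM is above 0 at numbers 3 and 4, and as deposited also at number 1, and is lowest at numbers 5 and 6.

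Numbers 5 and 6 therefore stood apart for CHLM and AT1G74470, but in opposite groups. The low CHLM values were in the light samples of that pair, at a mean log2 value of -1.37, against -0.67 for light samples 1 and 2 and -0.44 for light samples 3 and 4. The low AT1G74470 values were in its dark samples, at 0.22, against 0.63 for dark samples 1 and 2 and 0.71 for dark samples 3 and 4. For HEMA3 the dark samples of numbers 3 and 4 were the lowest. What a replicate number marks is not given in the sources used here, and the cause of these differences between pairs was not tested.

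The differences lay near or below the middle of those of the array in size. In absolute size the log2 difference of HEMA3 stood at percentile 37.2 of all 3439 probes, that of AT1G74470 at percentile 37.7 and that of CHLM at percentile 52.0. The median absolute difference over all probes was 0.46 and the median difference 0.01. The pooled spread within groups was 0.20 for HEMA3, 0.18 for AT1G74470 and 0.34 for CHLM on the log2 scale, with a median of 0.26 over all probes. HEMA3 and AT1G74470 thus varied less between samples of a group than the median probe, and CHLM varied more.

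**Figure D3:**
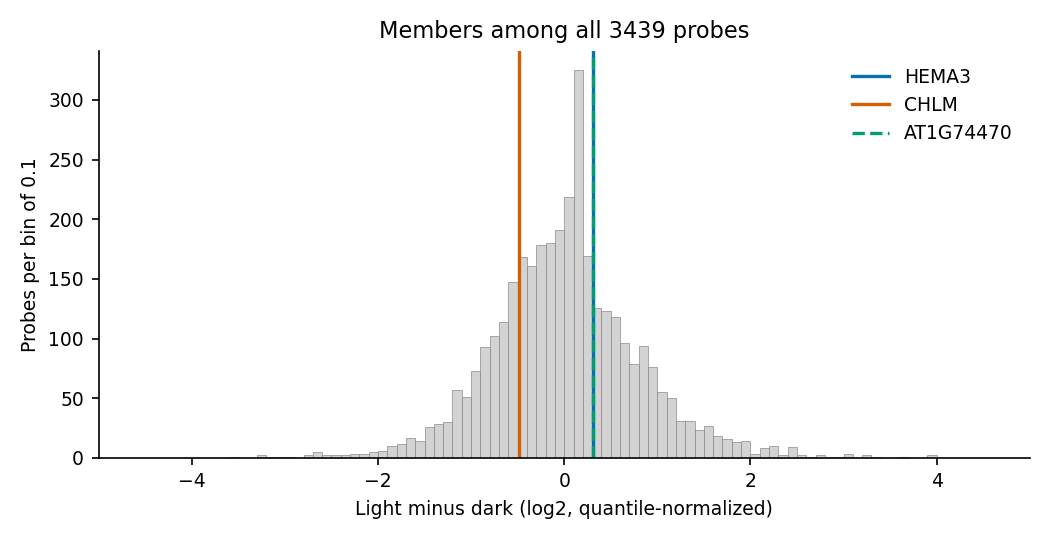
Number of probes (vertical axis) by log2 light minus dark of quantile-normalized values (horizontal axis, bins of 0.1) for all 3439 probes, with lines at the 3 genes. HEMA3 and AT1G74470 lie on nearly the same line at 0.31, CHLM at -0.48, and all 3 fall in the central bulk of the distribution.

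The position of a probe within its own array does not depend on a scaling that keeps the order of values. HEMA3 stood between percentiles 73.2 and 81.6 of its array in light samples, and between 56.8 and 79.5 in dark samples. CHLM stood between percentiles 28.0 and 65.2 in light samples and between 58.8 and 78.3 in dark samples. AT1G74470 stood between percentiles 91.7 and 93.7 in light samples and between 83.4 and 91.6 in dark samples. None of the 3 was at the floor set on low values in any sample. The dimmest reading, CHLM in light sample 5, was 2.56 times the floor of its column, where the floor is the 5th percentile of positive values and not a measured background.

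The early step, read from HEMA3 alone, was set against the later ones by the log2 ratio of 2 members within each array. Such a ratio cancels any factor common to both probes. Only differences of such a ratio between groups are compared, since the levels of different probes have no common scale. HEMA3 over CHLM was 0.48, 0.82, 0.28, 0.30, 1.58 and 1.38 in light samples 1 to 6, against 0.10, 0.04, -0.10, -0.05, 0.08 and 0.03 in dark samples 1 to 6. Every light sample lay above every dark sample. HEMA3 was among the 23.6% of all probes called higher in light and CHLM among the 29.0% called lower. How often ratios of other probes separate as fully was not computed, so this does not set the pathway apart. The ratio was higher in light by 0.79 ± 0.23 on the log2 scale (SE, n = 6 each), with an exact two-sided permutation p of 0.00216, the smallest that 924 assignments can give, and 0.00649 adjusted over the 3 ratios. It was higher in 6 of 6 pairs of equal numbers, by 0.58, 0.37 and 1.42 for numbers 1 and 2, 3 and 4, and 5 and 6. This difference was 0.73 as deposited and 0.86 after loess. Centring arrays on their medians cancels in such a ratio, so its 0.73 there repeats the deposited value and is no separate check. With equal numbers paired, exact sign flips gave p = 0.03125, the smallest that 64 flips allow, and 0.09375 after adjustment. With consecutive numbers averaged, 3 against 3 cannot go below an exact p of 0.1.

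For the other early to late ratio no difference was detected. HEMA3 over AT1G74470 averaged -0.86 ± 0.13 in light and -0.85 ± 0.39 in the dark on the log2 scale (SD, n = 6 each). The difference was -0.01 ± 0.17 (SE, exact two-sided permutation p = 0.970 before and after adjustment), and 2 of 6 pairs were above 0. Between the late genes, CHLM over AT1G74470 was lower in light by a log2 difference of -0.80 ± 0.24 (SE, exact two-sided permutation p = 0.00649, adjusted 0.00974), and below 0 in 5 of 6 pairs. As deposited this difference was -0.54 and not called (exact permutation test, adjusted p = 0.0909), nor was it called with equal numbers paired (exact sign flips, adjusted p = 0.09375). For numbers 3 and 4 it was -0.01, against -1.71 for numbers 5 and 6. Both ratios with CHLM thus differed between light and dark at 6 against 6, while for the ratio of the first to the last gene no difference was detected.

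**Figure D4:**
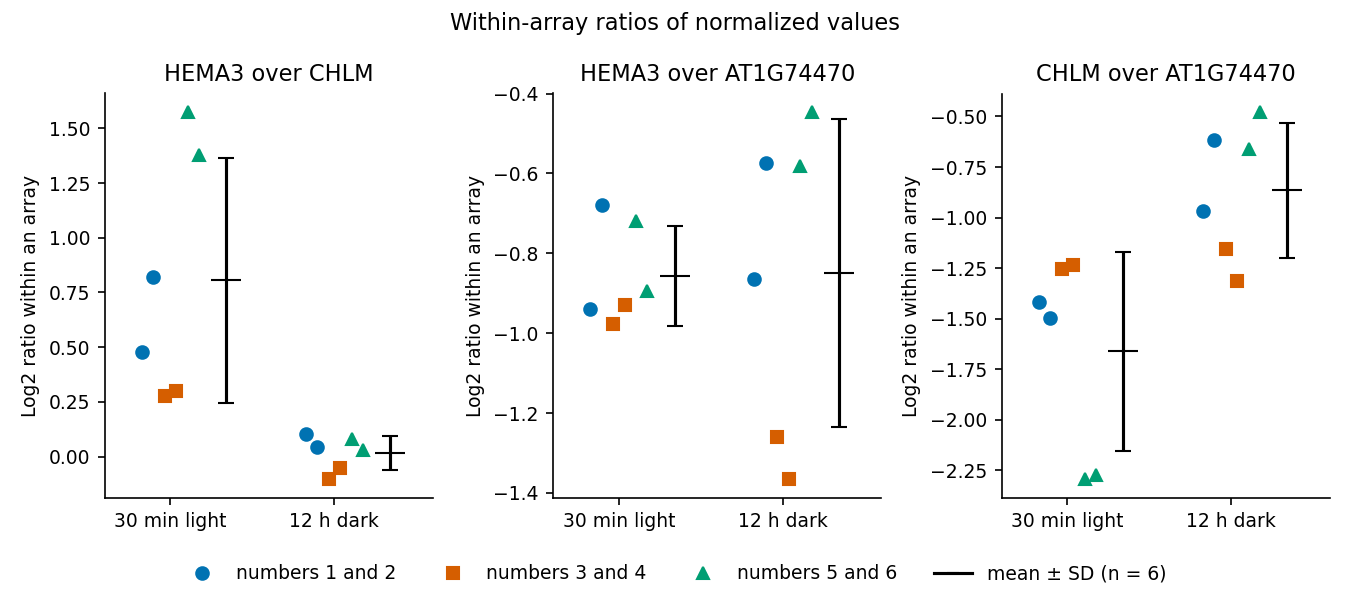
Log2 ratio of 2 members within each array (vertical axes, quantile-normalized values) in the 6 light and 6 dark samples, with symbols for pairs of consecutive numbers and bars for the mean ± SD. HEMA3 over CHLM lies higher in every light sample than in every dark sample, HEMA3 over AT1G74470 overlaps, and CHLM over AT1G74470 is lowest in light samples 5 and 6.

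The rest of the pathway was measured sparsely. A list of 42 loci of tetrapyrrole synthesis, written from general knowledge, had 3 with a probe naming that gene alone, and these are the 3 members, of which 2 rose and 1 fell. A list of 10 loci of chlorophyll breakdown and the chlorophyll cycle had 0 such probes, and a list of 17 loci that supply isoprenoid precursors or use phytol also had 0. A further 4 probes carry an annotation with 2 genes each, both on the tetrapyrrole list, and are not assigned to a gene. Of these, 1 was lower in light and 0 were higher by limma, where 29.0% of all probes were called lower and 23.6% higher. The lower one had an intensity of 0.552 ± 0.0857 in light and 0.487 ± 0.0678 in the dark (SD, n = 6 each), with a log2 difference after normalization of -0.35 ± 0.13 (SE, limma adjusted p = 0.0384). The other probes had log2 differences of 0.02, 0.09 and -0.16. Each of the 4 had a higher mean intensity in light as deposited. On those values the array median was 0.54 higher in light on the log2 scale, and 49.9% of all probes were called higher.

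The probes naming 1 gene whose profile over the 12 samples was most like each member were found by the root mean square difference of centred log2 values, over 527 candidates. For HEMA3 they were AT5G52960, AT1G24310 and AT2G39360, at 0.15, 0.15 and 0.16, where the median candidate was at 0.44. For CHLM they were AT1G54500, AT4G34310 and CML30 (AT2G15680), at 0.14, 0.16 and 0.20, with a median of 0.52. For AT1G74470 they were AT4G00870, AT2G38950 and AT2G28390, at 0.13, 0.13 and 0.13, with a median of 0.44. These probes were picked as the nearest of all candidates, so every other probe is further away by construction. Among the members, AT1G74470 ranked 53 among the candidates for HEMA3, at 0.26, and CHLM ranked 354, at 0.54. For CHLM, AT1G74470 ranked 288, at 0.55.

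**Figure D5:**
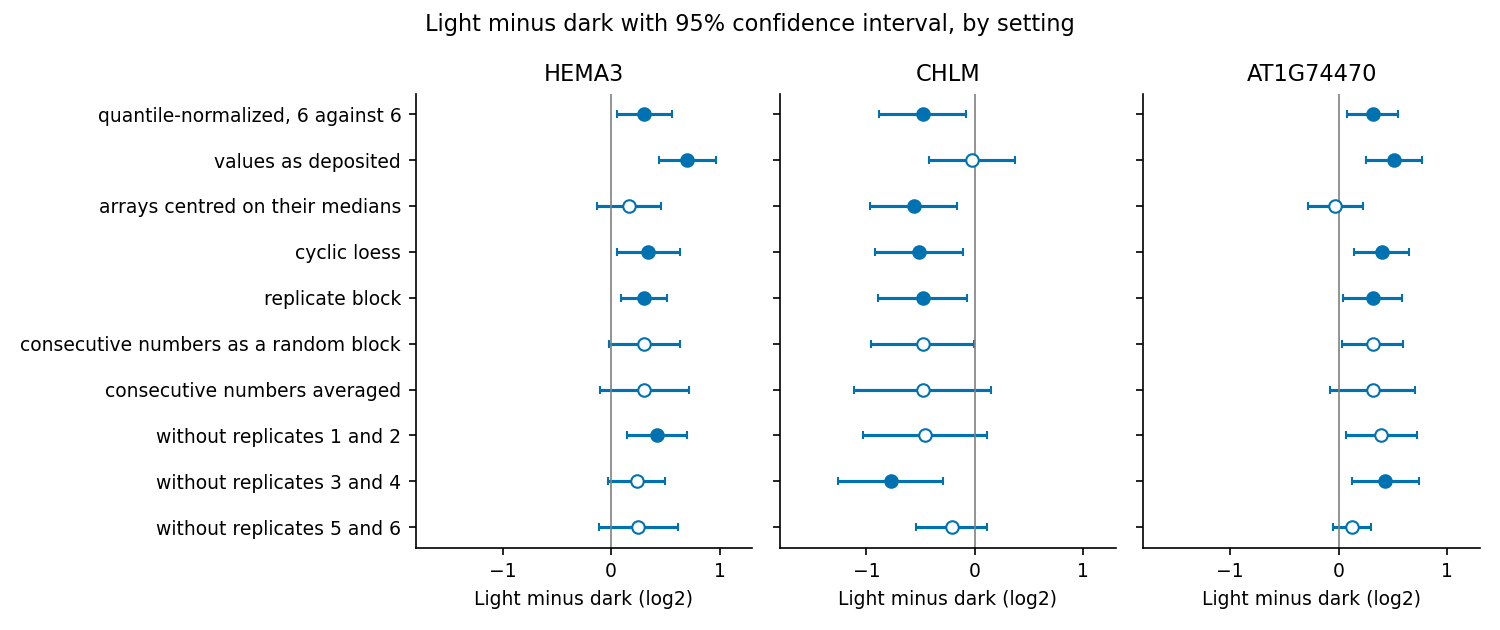
Light minus dark (horizontal axis, log2) with its 95% confidence interval from limma for HEMA3, CHLM and AT1G74470 under 10 settings, filled where the adjusted p was under 0.05 and open where it was not. No gene is called with consecutive numbers averaged or without numbers 5 and 6, and CHLM as deposited and AT1G74470 with centred arrays sit at -0.027 and -0.030.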

How the data were processed

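Transcript levels were read from an array of 3439 probes in 12 samples, grouped and numbered by title, and every column was used. The deposited intensities are linear. Scanner, background correction and scaling are not given in the sources, and precision is limited by the number of samples. Platform annotation names 1 gene for 692 probes, several for 870 and none here for 1877. By gene identifier, 690 of the 692 matched a table of the TAIR10.1 assembly. Intensities were quantile-normalized, raised to a floor at the 5th percentile of positive values of a column, and put on the log2 scale. The light minus dark contrast was fitted with limma 3.58.1 (lmFit, eBayes; R 4.3.3), without a block, with Benjamini-Hochberg adjustment over all probes and a threshold of 0.05. Ratios between members were tested by exact two-sided permutation. The fit was tested on simulated data with known changes and independent errors for each sample. That test does not cover the likeness between numbered samples seen here. Deviations from group means of equally numbered samples correlated at 0.41 to 0.65, so, all being over 0.1, the numbers were taken to pair samples, which no label states. Those of consecutive numbers within a group correlated at 0.36 to 0.60, so the likeness is not confined to equal numbers. The main tests do not use the pairing. Genes named were the members, list genes with their own probe, and the 3 most alike probes per member. Members, lists and tests were chosen with earlier results of these data known. No sequences were used.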

Additional observations from a re-analysis of the deposited data

How the results depend on the processing

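Averaging consecutive numbers left the log2 differences at 0.31 for HEMA3, -0.48 for CHLM and 0.31 for AT1G74470 and ended all 3 calls, as did the replicate block of 3 pairs on those means (limma adjusted p 0.143, 0.123 and 0.183) and consecutive numbers as a random block (0.133, 0.0993 and 0.0715). The replicate block with numbers 1 to 6 kept all 3 calls (limma adjusted p 0.0205, 0.0450 and 0.0490, with 60.2% of all probes called). By sign flips, HEMA3 over CHLM, at 0.79, and CHLM over AT1G74470, at -0.80, were not called after adjustment. HEMA3 over CHLM had the smallest p that 64 flips allow, 0.03125. With consecutive numbers averaged no ratio could be called, since 3 against 3 cannot go below an exact p of 0.1. Averaging also leaves the differences of the ratios as they are. As deposited CHLM stood at -0.027, and with centred arrays HEMA3 at 0.16 and AT1G74470 at -0.030. Under both of these scalings, which give a ratio within an array the same value, CHLM over AT1G74470 was -0.54 and not called. A floor at the 1st percentile put HEMA3 at an adjusted p of 0.0522, with its difference still 0.31. Leaving out 1 number in both groups gave 0.27 to 0.36 for HEMA3, -0.60 to -0.37 for CHLM and 0.23 to 0.37 for AT1G74470. Leaving out pairs of numbers was chosen after seeing the data. Without numbers 1 and 2 CHLM stood at -0.46, AT1G74470 at 0.39, HEMA3 over CHLM at 0.89 and CHLM over AT1G74470 at -0.85, all 4 no longer called. Without 3 and 4 HEMA3 stood at 0.24, no longer called, while HEMA3 over CHLM, at 1.01, and CHLM over AT1G74470, at -1.21, were still called. Without 5 and 6 the values were 0.25, -0.21 and 0.12 for HEMA3, CHLM and AT1G74470, 0.47 for HEMA3 over CHLM and -0.34 for CHLM over AT1G74470, none called, with fewer samples in each fit. In the absence of 1 and 2 or of 5 and 6, HEMA3 over CHLM was at 0.0286, the smallest exact p that 4 against 4 allows, so its lost calls say nothing about its dependence on those numbers. HEMA3 over AT1G74470, never called, was 0.19 as deposited and with centred arrays, -0.096 to 0.078 without 1 number, 0.034 without 1 and 2, -0.19 without 3 and 4, and 0.13 without 5 and 6. The count of called probes was 1807, and 1199 with consecutive numbers averaged, where fewer values entered. It was 1583 with the replicate block of 3 pairs on the same means, and 1376 with consecutive numbers as a random block over all 12 samples. As deposited 1715 probes were higher and 479 lower, against 811 and 996 after quantile normalization. With centred arrays the split was 686 and 1117. Apart from the limits of the exact tests given above, the cause of the changes between settings was not tested. No measure of background accompanies the values, so how far a dim reading such as CHLM in light stands above it is unknown.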

Other observations

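The log2 ratio of HEMA3 over CHLM had an SD of 0.56 among the 6 light samples and of 0.0792 among the 6 dark samples. In the dark, HEMA3 alone had an SD of 0.25 and CHLM alone one of 0.21 on the log2 scale, so both genes varied there while their ratio stayed between -0.10 and 0.10. In light, the ratio was 0.28 and 0.30 in samples 3 and 4, and 1.58 and 1.38 in samples 5 and 6. This contrast between the groups was noticed in the data and its spread was not tested. HEMA3 over AT1G74470 had the reverse order of spreads, with an SD of 0.13 in light and 0.39 in the dark.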
